A study of Mus musculus with 2 samples.

Results

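Class I antigen presentation was examined here through 10 mRNAs, B2m, H2-K1, H2-D1, Tap1, Tap2, Tapbp, Erap1, Nlrc5, Psme1 and Psme2, picked by gene symbol from a table of 38396 gene rows. All 10 symbols were found, each in a single row. Fat pads of the epididymal depot were taken from mice aged 6 weeks, and the RNA that came down with an anti-HuR antibody was sequenced. HuR, the product of Elavl1, binds RNA. The 2 groups were HuR-FKO, with floxed HuR alleles and Cre driven by the adiponectin promoter, and control, littermates with the floxed alleles and no Cre, after few generations of backcrossing to C57BL/6. Cre of this kind acts in adipocytes, so the other cells of the fat pad keep HuR in both groups. There was 1 library per genotype, the sources used here do not state the number of mice behind each, and no p-value can be had. Values are FPKM, which count fragments relative to transcript length and to the library total, so they can be compared between genes but give no amount of RNA recovered. No input library was analysed here, and recovery by the antibody and abundance of an mRNA in the tissue cannot be told apart.

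Class I molecules show peptides from inside the cell to CD8+ T cells. The proteasome cuts proteins into peptides, a task in which the PA28 activator encoded by Psme1 and Psme2 and the immunoproteasome take part. The TAP1-TAP2 transporter pumps the peptides into the endoplasmic reticulum, ERAP1 trims them, and tapasin, encoded by Tapbp, helps load them onto a heavy chain paired with beta-2-microglobulin. NLRC5 is a transactivator of class I genes, and interferon gamma raises the expression of most genes of the pathway. Nearly all nucleated cells carry class I molecules, so the whole fat pad can contribute these mRNAs.

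The targeted gene was examined first. Elavl1 had 26.1 FPKM under the label HuR-FKO and 16.6 FPKM under the label control, 1.57-fold higher in HuR-FKO, which goes against the label on the deposited scale. The scale matters, because most protein-coding genes had the higher FPKM in HuR-FKO, while FPKM summed over all rows was higher in control. Among 5571 protein-coding genes that reached 5 FPKM in one library or both, the median ratio of HuR-FKO over control was 4.66-fold (log2 2.22, quartiles 1.34 and 3.22), and relative to it Elavl1 lay 2.97-fold toward control. This median rests on the filter, since 5391 of the genes reached 5 FPKM in HuR-FKO but 2411 did in control. In 2231 both values reached it, and over these the median ratio was 2.86-fold. Median centring used another median, over all protein-coding genes with a value in both libraries and with no FPKM filter. It put the log2 ratio of Elavl1 at -1.44, and TPM over all rows put it at 2.01. The floxed gene is also transcribed in cells without Cre, so this is no direct check of the deletion. Below, HuR-FKO and control mean the libraries so labelled, and each ratio is also read against the median gene.

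The 3' UTRs of the members are shown before their levels because HuR is known to bind U-rich and AU-rich RNA. Each 3' UTR was the longest that GENCODE M21 annotates for the gene, on mm10. The pentamer ATTTA was searched on the transcript strand. The T-rich heptamer TTTNTTT and the run TTTTT were searched in the same way, and since matches may overlap, a long run of T can hold several of both. One window of 30 bases is printed for 9 members, with T in place of U and a match in capitals, of the pentamer where the 3' UTR held it and otherwise of the heptamer. Psme1, whose annotated 3' UTR is 147 bases, held none of the motifs.
B2m, chr2:122152697-122152726, plus strand: atatgctatacaATTTAtgcacgcagaaag
H2-K1, chr17:33996068-33996097, minus strand: tagaggttttgTTTGTTTgtttgattgatt
H2-D1, chr17:35267430-35267459, plus strand: ttagaggttttTTTGTTTgtttgattgatt
Tap1, chr17:34196922-34196951, plus strand: gagatacccggaATTTAccacgaatgtgtt
Tap2, chr17:34216259-34216288, plus strand: tagaaacattaTTTTTTTgctgaatataaa
Tapbp, chr17:33928258-33928287, plus strand: gctcggattttTTTTTTTaaggtttttttg
Erap1, chr13:74690744-74690773, plus strand: ccaagttccagaATTTAtgatgagcaaaat
Nlrc5, chr8:94526808-94526837, plus strand: ttttttttaagtATTTAtaagcaccttctg
Psme2, chr14:55587441-55587470, minus strand: ggaaaataaatgATTTAtactttatgtata

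The pentamer was present in 5 of the 10 members, namely B2m, Tap1, Erap1, Nlrc5 and Psme2. From 3' UTRs within 20% of each member's length, 4.94 members would hold it, so the members did not stand out in this count. By the same reckoning the heptamer was present in 6 members against 4.91, and the run of T in 6 against 6.02. Over 5498 genes at 5 FPKM with a 3' UTR of any length, 64.8% held the pentamer, 65.7% the heptamer and 74.3% the run. The single pentamer of Psme2 sits in a 3' UTR of only 44 bases, and 9.30% of the 43 3' UTRs of that size held it. Tapbp had the opposite arrangement. Its 3' UTR of 1141 bases held 15 matches of the heptamer and no pentamer, which 78.1% of 3' UTRs of that length hold. The heavy chain genes H2-K1 and H2-D1 carried similar but not identical T-rich stretches near the ends of their 3' UTRs, as the windows above show. Their longest identical run, of 51 bases, starts at position 334 of the H2-K1 and 520 of the H2-D1 3' UTR and so lies almost wholly upstream of these stretches. A match is a description of letters and not a binding site.

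The chains of the class I molecule were by far the most abundant members. B2m (ENSMUSG00000060802, chr2:122147686-122153083), the light chain shared by all classical class I molecules, had 430 FPKM in HuR-FKO and 126 FPKM in control, 3.40-fold more in HuR-FKO. Among protein-coding genes it ranked 159 in HuR-FKO and 160 in control. The heavy chain gene H2-K1 (ENSMUSG00000061232, chr17:33996017-34000333) was at 296 FPKM in HuR-FKO and 68.7 FPKM in control, a 4.31-fold difference. H2-D1 (ENSMUSG00000073411, chr17:35262730-35267499), the second classical heavy chain, was at 137 FPKM in HuR-FKO and 36.7 FPKM in control, 3.73-fold. These 3 ratios lay below the median of 4.66-fold, by 1.37-fold for B2m, 1.08-fold for H2-K1 and 1.25-fold for H2-D1, but above the 2.86-fold median of genes at 5 FPKM in both libraries. The chains made up 71.7% of the summed FPKM of the 10 members in HuR-FKO and 74.7% in control.

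**Figure D1:**
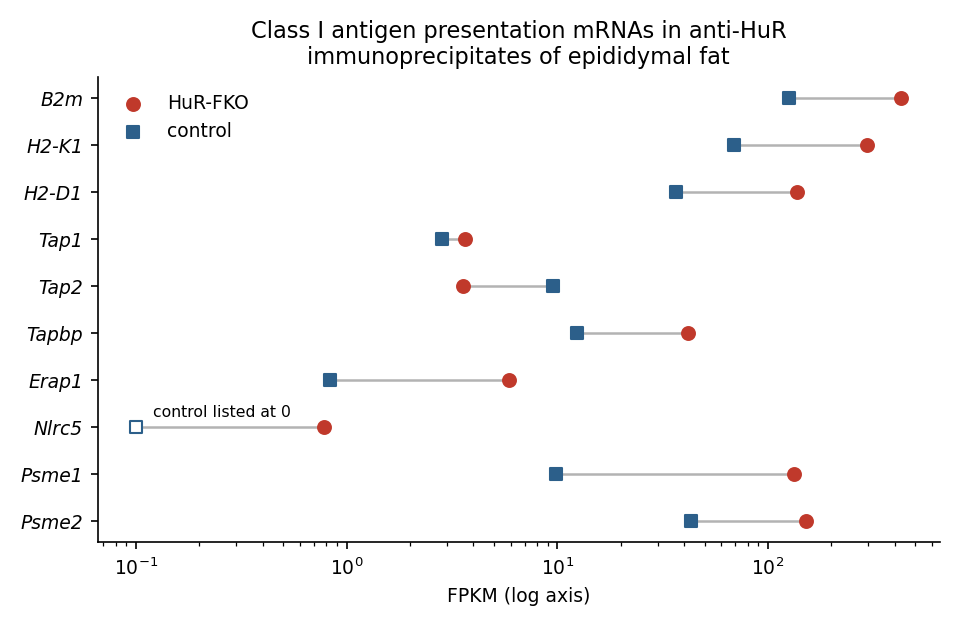
FPKM of the 10 members on a log axis, with circles for the HuR-FKO library and squares for the control library (1 library each). Tap2 is the only member with the higher value in control, at 9.53 FPKM against 3.58 in HuR-FKO, and the open square of Nlrc5 marks a value listed at 0, drawn at 0.1 FPKM.

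The transporter genes had the lowest ratios of the members. Tap1 (ENSMUSG00000037321, chr17:34187553-34197225), which encodes the first subunit, was at 3.64 FPKM in HuR-FKO and 2.85 FPKM in control. This 1.28-fold difference has an approximate 95% counting interval of 0.924 to 1.77, which includes equality. Tap2 (ENSMUSG00000024339, chr17:34203527-34216321), the other subunit, was at 3.58 FPKM in HuR-FKO and 9.53 FPKM in control, 2.66-fold higher in control with a counting interval of 2.00 to 3.59. It lay 12.4-fold below the median ratio, and 2.32% of the 5571 genes had a lower one. Tap2 passed the 5 FPKM filter through control alone, while 5391 of these genes reached 5 FPKM in HuR-FKO and 2411 in control. The filter thus had a part in this rank. Tap1 reached 5 FPKM in neither library and is not one of these genes, of which 9.68% had a lower ratio than Tap1. The study had placed Tap2 among its HuR targets from these same libraries, so its position is not independent evidence. An antisense gene, Gm20496, overlaps 1923 bases of the Tap2 span and was listed at 0 in HuR-FKO and at 4.29 FPKM in control, the same direction as Tap2. The sources used here do not state whether counting used strand, and the part of Gm20496 in the Tap2 value was not tested.

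Tapasin and the trimming peptidase differed from the transporter. Tapbp (ENSMUSG00000024308, chr17:33915899-33929288) was at 41.7 FPKM in HuR-FKO and 12.5 FPKM in control, 3.34-fold higher in HuR-FKO and 1.40-fold below the median ratio. Zbtb22, which overlaps 3422 bases of the Tapbp span on the same strand, was at 0.742 FPKM in HuR-FKO and 0.863 FPKM in control. Erap1 (ENSMUSG00000021583, chr13:74639872-74691875), the aminopeptidase of the endoplasmic reticulum, was at 5.88 FPKM in HuR-FKO and 0.830 FPKM in control. That is 7.09-fold, 1.52-fold above the median ratio. The control value of Erap1 corresponds to only about 14.1 fragments at the lower estimated total, and the counting interval of its fold reaches from 4.15 to 13.4, with the median of 4.66 inside it. Cast, on the opposite strand, overlaps Erap1 by 834 bases in GENCODE and was at 14.3 FPKM in HuR-FKO and 3.26 FPKM in control.

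Nlrc5 (ENSMUSG00000074151, chr8:94472763-94527272), the transactivator, was the least abundant member. It had 0.781 FPKM in HuR-FKO, about 71.2 fragments at the lower estimated total, and was listed at 0 in control. A listed 0 can be a failed estimate, so no fold is given.

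The PA28 subunit genes had unlike ratios although their products form one ring. Psme1 (ENSMUSG00000022216, chr14:55578123-55581529), the alpha subunit, was at 133 FPKM in HuR-FKO and 9.82 FPKM in control, 13.5-fold, the largest ratio of the 9 members with a value in both libraries. Psme2 (ENSMUSG00000079197, chr14:55587441-55591113), the beta subunit, was at 152 FPKM in HuR-FKO and 43.1 FPKM in control, 3.53-fold. Relative to the median ratio Psme1 lay 2.90-fold above and Psme2 1.32-fold below. Of the 5571 genes, 83.3% had a lower ratio than Psme1 and 37.7% a lower one than Psme2. The counting intervals of the folds were 10.6 to 17.8 for Psme1 and 3.10 to 4.03 for Psme2, and they did not overlap. Emc9, a subunit of the endoplasmic reticulum membrane complex, overlaps the end of Psme1 by 14 bases on the opposite strand. Emc9 was at 126 FPKM in HuR-FKO and listed at 0 in control, and its part in the Psme1 value was not tested.

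**Figure D2:**
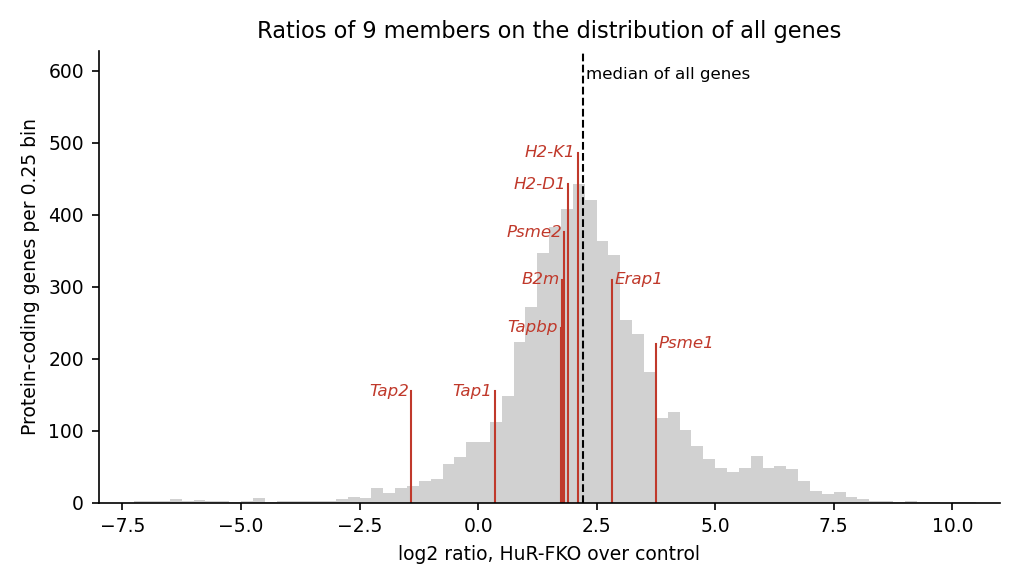
Log2 ratios of HuR-FKO over control for the 9 members with a value in both libraries (red lines, heights chosen for legibility) on the histogram of the 5571 background genes, of which Tap1 is not one. The dashed line marks the median of these genes at 2.22, and 7 of the 9 members lie to its left. With genes at 5 FPKM in both libraries the median would be at 1.52.

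Of the 10 members, 8 reached 5 FPKM in either library, 6 reached it in both, and Tap1 and Nlrc5 in neither. Among the 8, 7 had at least a 2-fold excess in HuR-FKO, as did 82.4% of the 5571 genes, and 1, Tap2, had it in control, as did 3.21%. Tap2 reached 5 FPKM in control alone and Erap1 in HuR-FKO alone, so the filter had a part in their calls, as it had in the background. The 6 members at 5 FPKM in both libraries, B2m, H2-K1, H2-D1, Tapbp, Psme1 and Psme2, were all at least 2-fold higher in HuR-FKO, as were 68.6% of the 2231 such genes, and 0 members against 2.06% of these genes were so in control. All 6 lay above the median of 2.86-fold over these genes, although only Psme1 of the 6 lay above 4.66-fold, so the side of the median on which the other 5 fall depends on the filter. The median log2 ratio of the 9 members with a ratio was 1.82 (3.53-fold), beside 2.22 over the 5571 genes. After median centring 1 member, Psme1, was at least 2-fold higher in HuR-FKO (background 27%) and 1, Tap2, in control (19.4%). Tap1, which is outside this count, would lie at a log2 ratio of -1.74. Upper-quartile scaling counted 1 member in HuR-FKO (29.4%) and 1 in control (17%). With TPM over protein-coding genes 2 members were counted in HuR-FKO (33.8%) and 1 in control (14.3%), and with TPM over all rows 7 in HuR-FKO (94.8%) and 0 in control (1.15%). A filter of 20 FPKM left 6 in HuR-FKO (85%) and 0 in control (1.59%).

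**Figure D3:**
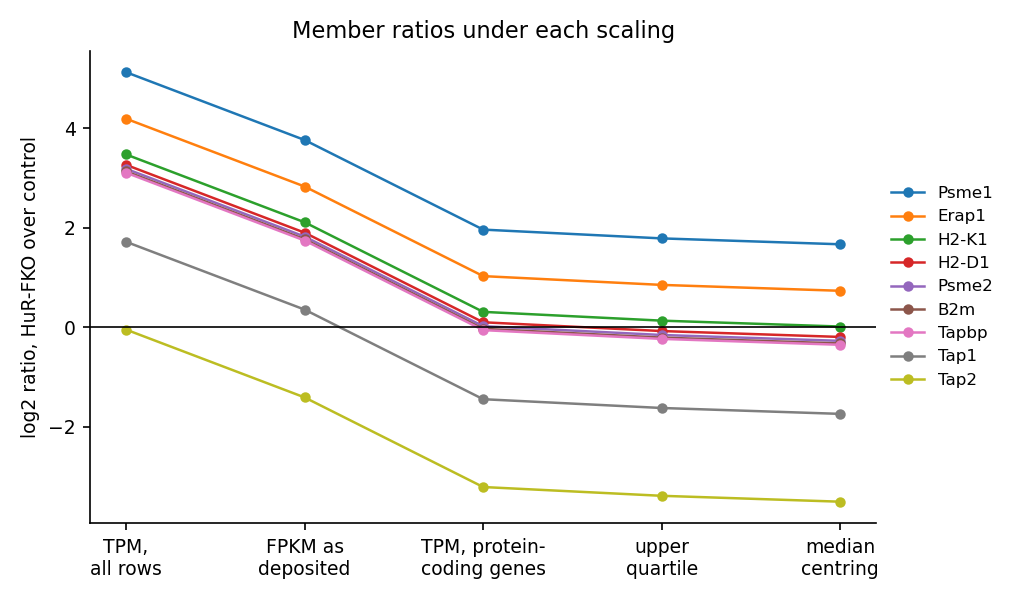
Log2 ratio of HuR-FKO over control for each of 9 members under 5 scalings, which shift every member by the same amount. Psme1 and Erap1 stay above 0 and Tap2 below 0 under each, while B2m, H2-D1, Tapbp, Psme2 and Tap1 lie on both sides of 0 and H2-K1 comes down to 0.01.

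A ratio of partner genes within a library does not depend on the scaling, and such ratios are given here for the members. Single genes vary widely in any case, with quartiles of the log2 ratio of HuR-FKO over control at 1.34 and 3.22 over the 5571 genes. The differences between libraries below were not set against other pairs of genes, so they are not read as particular to the pathway. Psme2 was 1.14 times Psme1 in HuR-FKO and 4.38 times in control, a 3.84-fold difference between libraries. Tap2 was 0.986 times Tap1 in HuR-FKO and 3.35 times in control, a 3.40-fold difference. In both pairs the subunits were at near-equal FPKM in HuR-FKO and apart in control. These ratios still carry the limits of overlap, depth and shared sequence given elsewhere for the single genes. The chains kept their proportions more closely. B2m was 1.45 times H2-K1 in HuR-FKO and 1.84 times in control, and H2-K1 and H2-D1 together were 1.01 times B2m in HuR-FKO and 0.833 times in control. H2-K1 was 2.16 times H2-D1 in HuR-FKO and 1.87 times in control. Tapbp was 11.6 times Tap2 in HuR-FKO and 1.31 times in control, the widest difference among the 8 ratios compared.

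**Figure D4:**
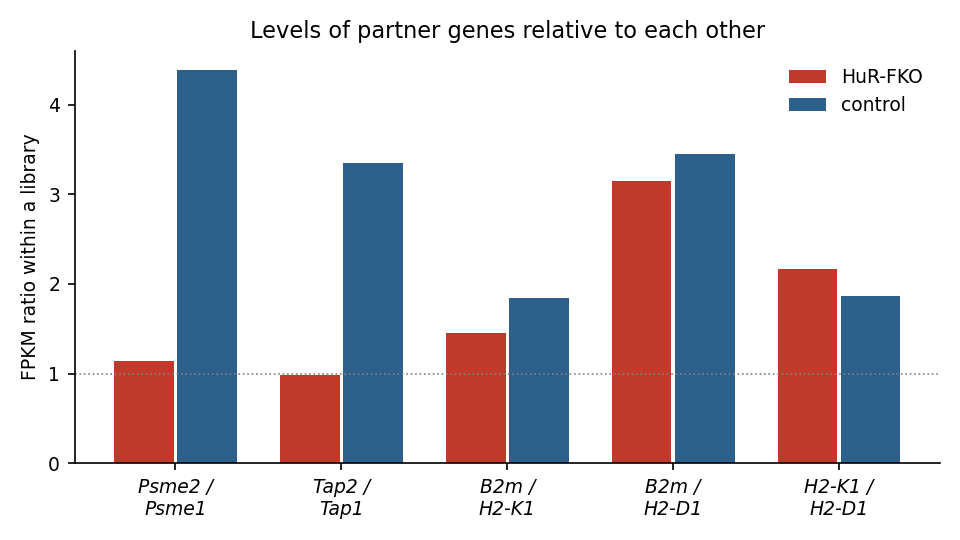
FPKM of one gene divided by that of its partner within each library, with HuR-FKO on the left of each pair and control on the right (1 library each). The Psme2 to Psme1 and Tap2 to Tap1 ratios are 1.14 and 0.986 in HuR-FKO and 4.38 and 3.35 in control, while the 3 ratios among the chains differ less between libraries.

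Depth limits these values unevenly. Depth was estimated from steps of 1 fragment in low values. At the best totals 38.5% of the low values in HuR-FKO and 34.4% in control were whole, so most were not, and the estimates are approximate. Candidate totals were 18240000 or 36780000 fragments for HuR-FKO and 10940000 or 21980000 for control. The values do not separate the lower from the higher total. At the lower totals B2m rests on about 5180 fragments in HuR-FKO and 913 in control. Tap1 rests on 123 fragments in HuR-FKO and 57.7 in control, Tap2 on 78.4 in HuR-FKO and 125 in control, and Psme1 on 1427 in HuR-FKO and 63.2 in control. Intervals given above use these rounded numbers with a conditional exact binomial method. They cover counting error only, not the spread between mice, and fragments copied by PCR are not independent molecules.

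Some members share sequence with other genes, and reads there can be split by the quantification. Of 50-base windows in annotated coding transcripts, 54.9% of those of Psme2 also occur in Psme2b, a copy on chromosome 11 listed as Psme2b-ps, which was at 49.3 FPKM in HuR-FKO and 21.1 FPKM in control. For H2-D1 13.9% and for H2-K1 6.87% of windows occur in other genes, most often in each other and in H2-Q1, and for Psme1 11.3%. The share was 3.50% for Tapbp and under 1% for the other members. The values of Psme2 and of the heavy chains are uncertain to that extent.

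5 members, H2-K1, H2-D1, Tap1, Tap2 and Tapbp, lie together in the major histocompatibility complex on chromosome 17. Between the first and the last of them, chr17:33915899-35267499, 37 other protein-coding genes reached 5 FPKM in either library. Their median ratio was 4.30-fold, near that of all genes. Of the 37, 27 were at least 2-fold higher in HuR-FKO and 3 in control, beside 82.4% and 3.21% of the 5571 genes. How many of the 37 passed the filter through HuR-FKO alone was not counted. Tap1 shares its start region with Psmb9, which encodes an immunoproteasome subunit and runs the other way, with 211 bases between the starts. The 2 spans overlap by 212 bases, and the part of Psmb9 in the Tap1 value was not tested. Psmb9 was at 107 FPKM in HuR-FKO and 8.63 FPKM in control, 12.4-fold, beside 1.28-fold for Tap1.

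Other genes of the pathway were described by lists, over those of their protein-coding genes that passed the 5 FPKM filter, and the shares of 82.4% in HuR-FKO and 3.21% in control given above are the background of their counts. HuR-FKO alone carried 2 of the 6 immunoproteasome and activator genes, 1 of the 3 constitutive subunits and 2 of the 8 loading genes past the filter, and so had a part in their counts. Of 6 immunoproteasome and activator genes beyond the members, 5 were at least 2-fold higher in HuR-FKO and 4 lay above the median ratio (median log2 2.39). Psmb10, a catalytic subunit of the immunoproteasome, was at 50.1 FPKM in HuR-FKO and 10.1 FPKM in control, Psmb8, another, at 20.8 FPKM in HuR-FKO and 5.96 FPKM in control, and Pomp, the assembly chaperone, at 214 FPKM in HuR-FKO and 123 FPKM in control. The constitutive catalytic subunits had lower ratios. The HuR-FKO excess was 2.33-fold for Psmb5, 1.95-fold for Psmb6 and 1.88-fold for Psmb7, all below the median ratio (median log2 0.96). Among 8 genes of peptide loading and quality control in the endoplasmic reticulum, 7 were at least 2-fold higher in HuR-FKO and 6 lay above the median ratio (median log2 2.66). Bcap31, a sorting factor for membrane proteins, was at 174 FPKM in HuR-FKO and 30.05 FPKM in control, and the chaperone genes Calr at 93.1 FPKM in HuR-FKO and 15.0 FPKM in control and Canx at 106 FPKM in HuR-FKO and 75.1 FPKM in control. Sec61a1, the pore of the translocon, was at 72.9 FPKM in HuR-FKO and 11.2 FPKM in control. Peptidases that trim or destroy peptides had 3 measured genes, Npepps, Blmh and Lap3, all at least 2-fold higher in HuR-FKO and all below the median ratio (median log2 1.06). Blmh, a cytosolic aminopeptidase, was at 42.8 FPKM in HuR-FKO and 16.5 FPKM in control.

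**Figure D5:**
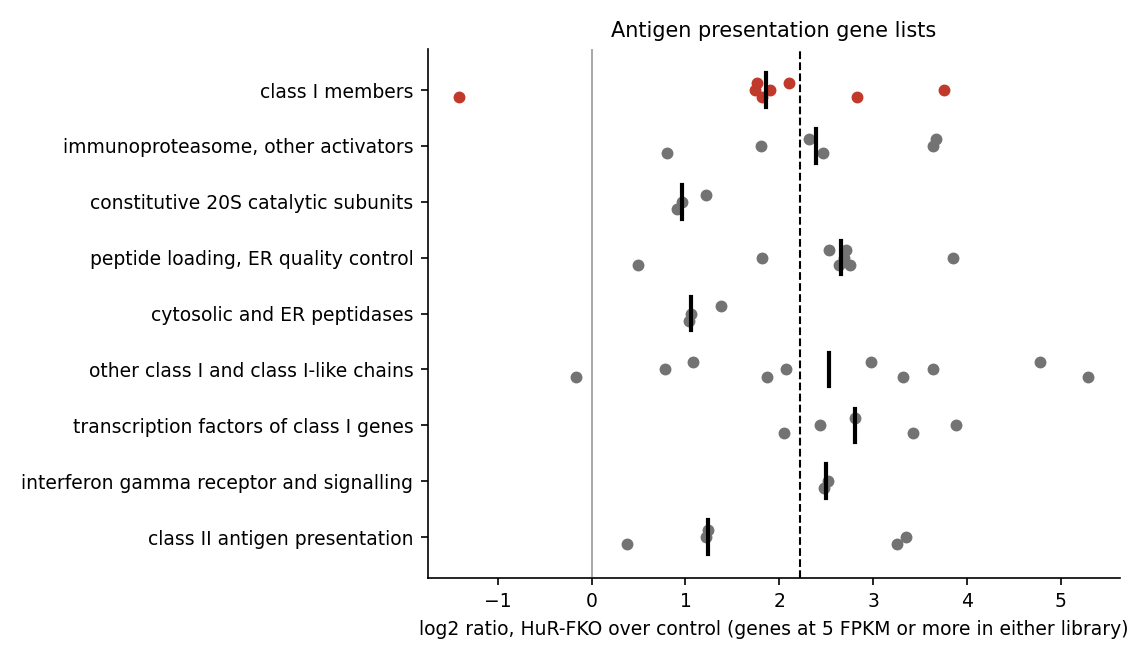
Log2 ratios of HuR-FKO over control for the 8 members and for the genes of 8 lists that passed the 5 FPKM filter, each point 1 gene, black bars list medians. The dashed line is the median of all 5571 genes at 2.22, and the lowest list median is 0.96, of the constitutive catalytic subunits. All 5 transcription factors drawn reached 5 FPKM in HuR-FKO alone.

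Of the other class I and class I-like chains, 10 passed the filter, 7 of them through HuR-FKO alone. Neither a count nor a spread is therefore read from them. Their median log2 ratio was 2.53, and it was 1.88 without a filter and 1.08 with one of 20 FPKM. Cd1d1, which presents lipids to NKT cells, was at 40.3 FPKM in HuR-FKO and 23.4 FPKM in control, and Fcgrt, the neonatal Fc receptor chain that also pairs with beta-2-microglobulin, at 37.97 FPKM in HuR-FKO and 17.95 FPKM in control. H2-Q7 was at 36.7 FPKM in HuR-FKO and 3.67 FPKM in control, and H2-T23 at 16.5 FPKM in HuR-FKO and 1.32 FPKM in control. H2-T22 had near-equal values, 6.92 FPKM in HuR-FKO and 7.78 FPKM in control. Near-identical class I copies can share reads, as above.

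Of 13 transcription factors of class I genes 5 passed the filter, all through HuR-FKO alone, so their median log2 ratio of 2.80 is set in part by the filter. Without a filter it was 2.06. Nfyb, a subunit of the NF-Y complex, ran the other way, with 1.197 FPKM in HuR-FKO and 3.11 FPKM in control. The NF-kappaB subunit gene Rela was at 24.3 FPKM in HuR-FKO and 3.49 FPKM in control, Rfxap, of the RFX complex that acts with NLRC5, at 17.7 FPKM in HuR-FKO and 3.28 FPKM in control, and Irf1, an interferon-induced activator, at 10.6 FPKM in HuR-FKO and 2.55 FPKM in control. Nfkb1 was at 10.5 FPKM in HuR-FKO and 0.713 FPKM in control. Rfx5, of the same complex as Rfxap, was listed at 0 in both. Of the interferon gamma pathway, the receptor gene Ifngr1 was at 62.2 FPKM in HuR-FKO and 10.8 FPKM in control. Jak1, which passed the filter through HuR-FKO alone, was at 8.04 FPKM in HuR-FKO and 1.44 FPKM in control. Ifngr2, the other receptor gene, did not pass it and was near-equal, at 3.67 FPKM in HuR-FKO and 3.71 FPKM in control. Ifng was listed at 0 in both. Class II genes, which mark professional presenting cells, had 5 measured members. Of these 4 were at least 2-fold higher in HuR-FKO, as were 82.4% of the 5571 genes. HuR-FKO alone carried 1 of the 5 past the filter, and so had a part in this count. Their median log2 ratio was 1.24, beside 2.22 over the 5571 genes, and 2 of the 5 lay above the latter. Some class II genes below the filter ran the other way, such as H2-DMa with 0.560 FPKM in HuR-FKO and 1.54 FPKM in control. H2-Ab1 was at 413 FPKM in HuR-FKO and 43.2 FPKM in control, Cd74, the invariant chain, at 38.5 FPKM in HuR-FKO and 16.3 FPKM in control, H2-Eb1 at 36.1 FPKM in HuR-FKO and 15.5 FPKM in control, and H2-Aa, the partner of H2-Ab1, at 31.3 FPKM in HuR-FKO and 24.1 FPKM in control.

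The labelled tissue showed its markers, with all 8 adipocyte genes present and summing to 28114.5 FPKM in HuR-FKO and 8385.09 FPKM in control. Adipoq was at 621 FPKM in HuR-FKO and 150 FPKM in control. Immune cells carry much class I, and their markers are given beside the background. Of 7 T and NK cell markers, 4 were above 0 in HuR-FKO and 1 in control, summing to 15.7 FPKM in HuR-FKO and 0.0733 FPKM in control, and Cd3g, Cd4 and Klrb1c were listed at 0 in both. Among 4 B cell markers, 2 were listed at 0 in HuR-FKO and 4 in control, and the sum in HuR-FKO was 1.65 FPKM. Of all protein-coding rows 65.5% were above 0 in HuR-FKO and 57.2% in control, and a listed 0 is not absence, since the macrophage gene Cd68 was listed at 0 in both while C1qa, another, was at 69.9 FPKM in HuR-FKO and 25.8 FPKM in control. Macrophage markers summed to 153 FPKM in HuR-FKO and 50.4 FPKM in control over 7 genes, 3.04-fold, and dendritic cell markers to 8.60 FPKM in HuR-FKO and 1.11 FPKM in control. The 4 general leukocyte markers summed to 156 FPKM in HuR-FKO and 55.02 FPKM in control, 2.84-fold. Cd52 made up most of that sum, at 136 FPKM in HuR-FKO and 36.6 FPKM in control. Of the 4, 2 were higher in HuR-FKO, while Laptm5 was at 13.5 FPKM in HuR-FKO and 16.6 FPKM in control. The macrophage and leukocyte ratios were both below the 4.66-fold of the median gene and the 3.35-fold of the adipocyte sum. The dendritic cell and the T and NK cell sums, both low, had higher ratios. Over genes at 5 FPKM in both libraries the median was 2.86-fold, below the macrophage ratio and just above the leukocyte ratio. A ratio of sums follows the most abundant genes, so these comparisons with a median of ratios are loose. The 6 endothelial markers summed to 61.4 FPKM in HuR-FKO and 31.5 FPKM in control. The 6 fibroblast and progenitor markers summed to 611 FPKM in HuR-FKO and 152 FPKM in control. Of these 5 were higher in HuR-FKO, while Pdgfra was at 0.170 FPKM in HuR-FKO and 0.512 FPKM in control. The 4 erythroid markers summed to 1757 FPKM in HuR-FKO and 790.2 FPKM in control. Of these 3 were higher in HuR-FKO, while Alas2 was at 1.92 FPKM in HuR-FKO and 8.14 FPKM in control. The general leukocyte gene Ptprc was at 0.0344 FPKM in HuR-FKO and 0.190 FPKM in control. These are immunoprecipitates of whole tissue, so the number of cells of a type, RNA per cell and recovery by the antibody cannot be told apart. The marker sums are therefore no measure of tissue composition, and the part of these cells in the class I values was not tested.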

How the data were processed

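Anti-HuR immunoprecipitates of epididymal white fat, 1 library per genotype, were sequenced. The authors deposited FPKM values per gene in 1 table, and the submitters' processing notes name TopHat2 2.0.11, Cufflinks 2.1.1 and mm10. Annotation, duplicate handling and strand setting are not stated in the sources used here for this assay.

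Biotypes, transcripts and 3' UTRs came from GENCODE M21 on the same build. Of 38396 rows, 36573 matched by gene identifier. Starts were converted to count from 1. A floor of 0.1 FPKM was applied before log2 ratios of HuR-FKO over control, and the background was the protein-coding genes reaching 5 FPKM in one library or both. No test was possible with a single library per genotype, and a 2-fold difference was the rule for counts. Each 3' UTR was the longest annotated. Library totals were scanned for whole fragments (within 0.05) at low values of single-transcript genes. At the best totals 38.5% of 208 values in HuR-FKO and 34.4% of 384 in control were whole, so fragments are approximate. By chance 10% would be whole at a single fixed total. The best totals were picked from many scanned, so that share is no fair comparison for them. Fragments per gene used mean coding transcript length. Computations used Python 3.11.15, and scripts were tested on simulated data.

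The members and lists were chosen with earlier results of these data known. Named genes were the members, some of the genes overlapping them, Elavl1 and, per list, up to 4 measured genes of highest mean FPKM. Overlapping genes left unnamed had no value or at most 0.209 FPKM in either library. Psmb9 and Psme2b-ps followed from position and shared sequence, and H2-T22, Nfyb, Rfx5, Ifng, Ifngr2, H2-DMa and named cell markers were added after their values were seen. Alternatives were other pseudocounts, filters, scalings, summed rows and other 3' UTR choices.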

Additional observations from a re-analysis of the deposited data

How the results depend on the processing

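The direction of most members rests on the scaling, which adds a constant to every log2 ratio. Median centring adds -2.09, upper-quartile scaling -1.98, TPM over protein-coding genes -1.80 and TPM over all rows 1.36. The median used for centring is over protein-coding genes with a value in both libraries, without a filter. It is not the log2 median of 2.22 over the filtered genes against which ratios are read above. The median log2 ratio of the 9 members, 1.82 as deposited, became -0.27, -0.16, 0.020 and 3.18 under these, and 1.80 with a pseudocount of 1 FPKM. B2m turned to -0.33, -0.21 and -0.033 under the first 3, and Tapbp to -0.35, -0.24 and -0.059. H2-D1 turned to -0.20 and -0.078, and Psme2 to -0.27 and -0.16, under the first 2. Members at least 2-fold higher in HuR-FKO numbered 1, 1 and 2 under the first 3. Members at least 2-fold higher in control numbered 0 with TPM over all rows, where Tap2 was at -0.049, and 0 with a filter of 20 FPKM, which Tap2 does not reach. They also numbered 0 among members at 5 FPKM in both libraries, a filter chosen after seeing the data. The median over all list genes, 2.45 as deposited, was 0.36, 0.48, 0.65 and 3.81 under the 4 scalings in the order above, 2.40 and 1.93 with pseudocounts of 0.1 and 1 FPKM, and 2.37, 1.81 and 1.88 with filters of 1 and 20 FPKM and none. The count of members with ATTTA stayed at 5 with the transcript of longest coding sequence. No paired analysis was possible because each group has 1 library, which also means that none could be left out. Low members are limited by depth, as with Erap1 and Nlrc5 in control.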
